A study of Mus musculus with 8 samples.

Results

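The chaperone and heat shock genes described here are the genes whose symbols begin with Hsp, Dnaja, Dnajb, Dnajc or Cct2 to Cct8, together with Bag1 to Bag6 and the transcription factors Hsf1 and Hsf2. The 5 endoplasmic reticulum (ER) chaperones Hspa5, Hsp90b1, Dnajb9, Dnajb11 and Dnajc3 and the symbols that name pseudogenes were left out. This symbol rule took 88 of the 39017 genes measured, under 87 symbols, because Hspa14 is listed as 2 genes. Of the 88, 74 had a mean of at least 10 normalized counts and were tested, 14 fell below that level, and 3 of the 14 (Dnajb8, Hspb2 and Hspb3) had no read in any library. The rule used only symbols and no measured value. It does not hold to the cytosol, since 8 of the genes act in mitochondria, and Hspa13, Dnajc10 and Dnajc16 are among those known as ER proteins. Hspg2 encodes perlecan, a matrix proteoglycan that is not a chaperone.

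Both genotypes were C57BL6/J mice that carried Cγ1-cre, which acts once B cells are activated. Prmt5-null samples also carried Prmt5 F/F alleles, which Cγ1-cre excises, and control samples carried Cγ1-cre alone. Splenic B cells were grown for 4 days with IL-4 at 1 ng per mL on 40LB cells, feeder fibroblasts that express CD40L and BAFF, to give induced germinal center-like B cells (iGBs), and were then separated from the feeders by elutriation. Total RNA depleted of ribosomal RNA was sequenced from 4 mice per genotype, and each library is named here by its label and mouse number, PRMT5 for Prmt5-null and CTRL for control. Prmt5, which encodes the protein arginine methyltransferase that was ablated, had 1060.3, 1291, 1808 and 1994 normalized counts in the Prmt5-null libraries and 11084 to 13088 in the controls (log2 fold change -2.98 ± 0.17 SE, adjusted p = 6.14e-06 by limma). The labels tie no library to either of the 2 experiments the study ran. The second principal component of all genes (25.8% of the variance, beside 34.0% on the first) put PRMT5-10617 and PRMT5-10618 and CTRL-10596 and CTRL-10597 on one side and the other 4 libraries on the other, so each side held 2 mice of each genotype.

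Library depth ran from 36731721 to 50366174 reads on genes. B cell genes were abundant in every library (summed 313905 to 397630 normalized counts over 7 genes), and T cell genes were near 0 (4.33 to 11.8 over 4 genes, with Cd3e at 0). The 4 myeloid genes summed to 540 to 716 in Prmt5-null and 595 to 652 in control libraries. Of the 7 B cell genes, Cd79a fell (log2 fold change -0.74, adjusted p = 0.000327 by limma). Of 4 germinal center-like genes, Gcsam fell (-1.49, adjusted p = 0.000267) and Fas rose (0.47, adjusted p = 0.00504), both by limma. The genotypes thus differed in some of these marker genes. Fibroblast genes were present in all libraries and summed to 7444 to 12967 in Prmt5-null and 4946 to 8487 in control libraries over 10 genes, of which 9 were tested, all 9 had a positive log2 fold change and 3 (Col3a1, Col1a2 and Sparc) passed the test. The part that feeder RNA plays in any result here was not tested. In such bulk samples, fewer cells of a type and less RNA per cell cannot be told apart.

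Chaperones bind unfolded or misfolded proteins and keep them from aggregating while they fold. HSP70 proteins bind short hydrophobic stretches in a cycle driven by ATP, in which J-domain proteins (the Dnaj genes) deliver clients and stimulate ATP hydrolysis, and nucleotide exchange factors (the HSP110 and BAG proteins and Hspbp1) release them. HSP90 acts later, on near-native clients such as kinases and receptors, and the ring-shaped CCT (TRiC) chaperonin encloses actin, tubulin and other proteins while they fold. Heat shock factor 1 drives the inducible members of these families by binding heat shock elements, repeats of the bases GAA in alternating orientation, whereas growing cells express the constitutive members at high levels without stress.

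In control iGBs several constitutive chaperones were among the most abundant transcripts. On the scale of normalized counts per kb of exon, Hsp90ab1, the constitutive cytosolic HSP90, led with 23274 ± 1379 (SD, n = 4), and Hspa8, the constitutive HSC70, followed with 20433 ± 2030.5. The libraries of these 2 genes overlapped, so their order lies within the spread between mice. Cct5 (13446 ± 926), Cct2 (11268 ± 701) and Hsp90aa1, the stress-inducible HSP90 (9065 ± 443), came next, each separated from the gene below it without overlap. Hspd1, Cct8 and Hspa9 lay between 7197 and 7530 per kb, each overlapping the next, and Cct4 (5949.7 ± 483) and Cct6a (5534 ± 307) closed the first 10. Of the 87 genes with an annotated length, 18 (20.7%) lay above the 90th percentile of the genes tested on this scale. By construction, 10% of tested genes pass that bound. The median percentile of the 87 was 47.3.

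The inducible HSP70 genes were low, at ranks 64 (Hspa1b) and 67 (Hspa1a) of the 87 genes with a length. On the same per kb scale, Hspa8 stood 732 times above Hspa1a and 597 times above Hspa1b in the control means, and Hsp90ab1 stood 2.57 times above Hsp90aa1. Hspa1a and Hspa1b are near-identical copies, and counting of uniquely mapped reads drops reads that fit both, so their levels are uncertain. Hspb1, the small heat shock protein HSP27, had between 1.79 and 7.41 normalized counts in the 8 libraries and was not tested.

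**Figure D1:**
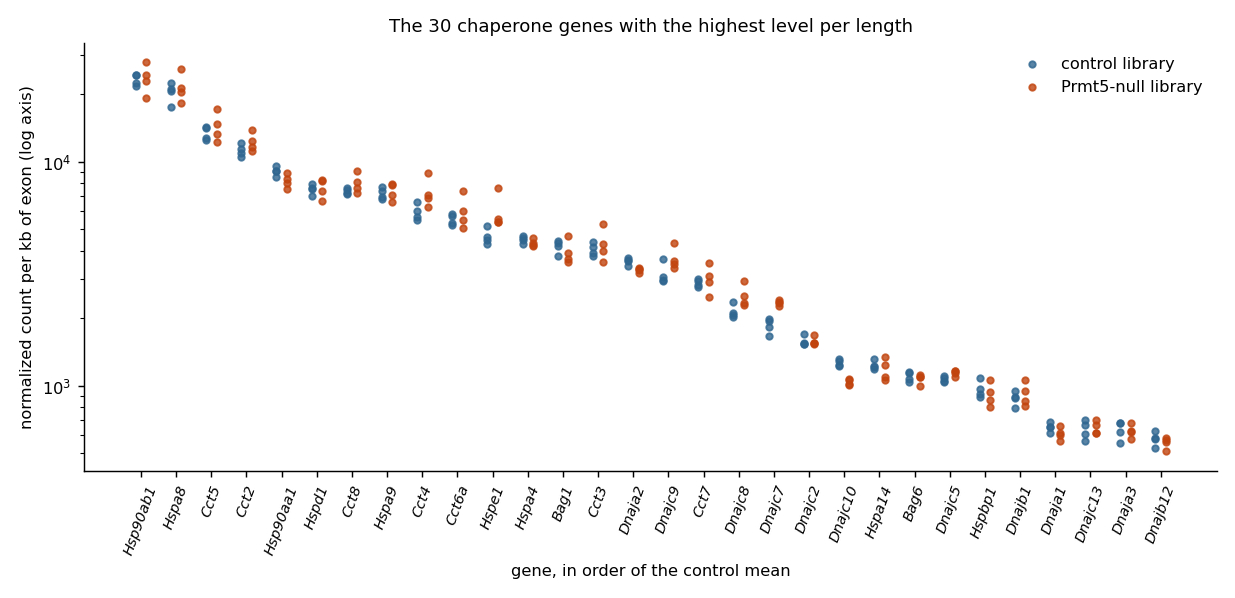
Normalized count per kb of exon on a log axis for the 30 chaperone genes with the highest control mean, in order of that mean, with 1 blue point per control library and 1 orange point per Prmt5-null library. Hsp90ab1 and Hspa8 stand at the top with overlapping libraries, and the Prmt5-null points spread over a wider range than the control points for Hsp90ab1, Hspe1 and several CCT subunits.

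In Prmt5-null iGBs most of these transcripts were close to their control level. Of the 74 genes tested, 6 (8.11%) passed an adjusted p below 0.05 (limma, Benjamini-Hochberg over all 16250 genes tested), beside 13.8% of all genes tested. Of the 6, 2 were higher in Prmt5-null iGBs (6.51% of all genes were) and 4 were lower (7.33% of all genes were). None of the 74 was called at an adjusted p below 0.05 together with a change of at least 1.5-fold, beside 6.48% of all genes. At an unadjusted p below 0.05 there were 19 genes (beside 29.3% of all genes). Of these, 3 changed by at least 1.5-fold (Dnajb3, Hspb8 and Hspa1a). Run on the recovered reads, edgeR and DESeq2 each called 1 gene at 1.5-fold, Hspb8. No share of all genes is given for these 1.5-fold results or for those under the alternatives below, so they describe single genes. For 57 of the 74 genes (77.0%) the 95% interval of the fold change lay wholly within 1.5-fold either way, beside 57.4% of all genes tested. The median log2 fold change of the 74 was -0.0050, beside 0.0024 over all genes, and the median absolute log2 fold change was 0.13, beside 0.19. Neither the interval share nor the median absolute change was matched for level. A mean of at least 1000 normalized counts was reached by 46 of the 74 chaperone genes and by 7140 of all 16250. Among genes with such a mean, 5 of the 46 chaperone genes (10.9%) passed, beside 15.5% of the 7140.

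The number passing depended on 1 library more than on the others. Without PRMT5-10618, 10 of the 74 genes passed, beside 13.65% of all genes tested. They were the 6 above and Cct4, Hspa12a, Hspb8 and Hspe1, and Hspb8 was called at 1.5-fold. Without any one of the other 7 libraries, 5 to 7 passed, beside 8.45% to 14.6% of all genes. Bag2 and Dnajc16 reached 1.5-fold without PRMT5-10770, and Bag2 and Dnajb3 did so without CTRL-10597. DESeq2 passed 10 genes (beside 18.9% of all genes), the same 6 and Dnajc25, Hspa12a, Hspb8 and Hspe1. With the sides of the second principal component as a block in limma, 9 genes passed, beside 17.0% of all genes. This alternative was chosen after seeing the data, and its sides were computed from the same values that were then tested. Its adjusted p-values are therefore no independent support. The 9 were the same 6 and Hspa12a, Hspb8 and Hspe1, and Hspb8 was called at 1.5-fold.

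**Figure D2:**
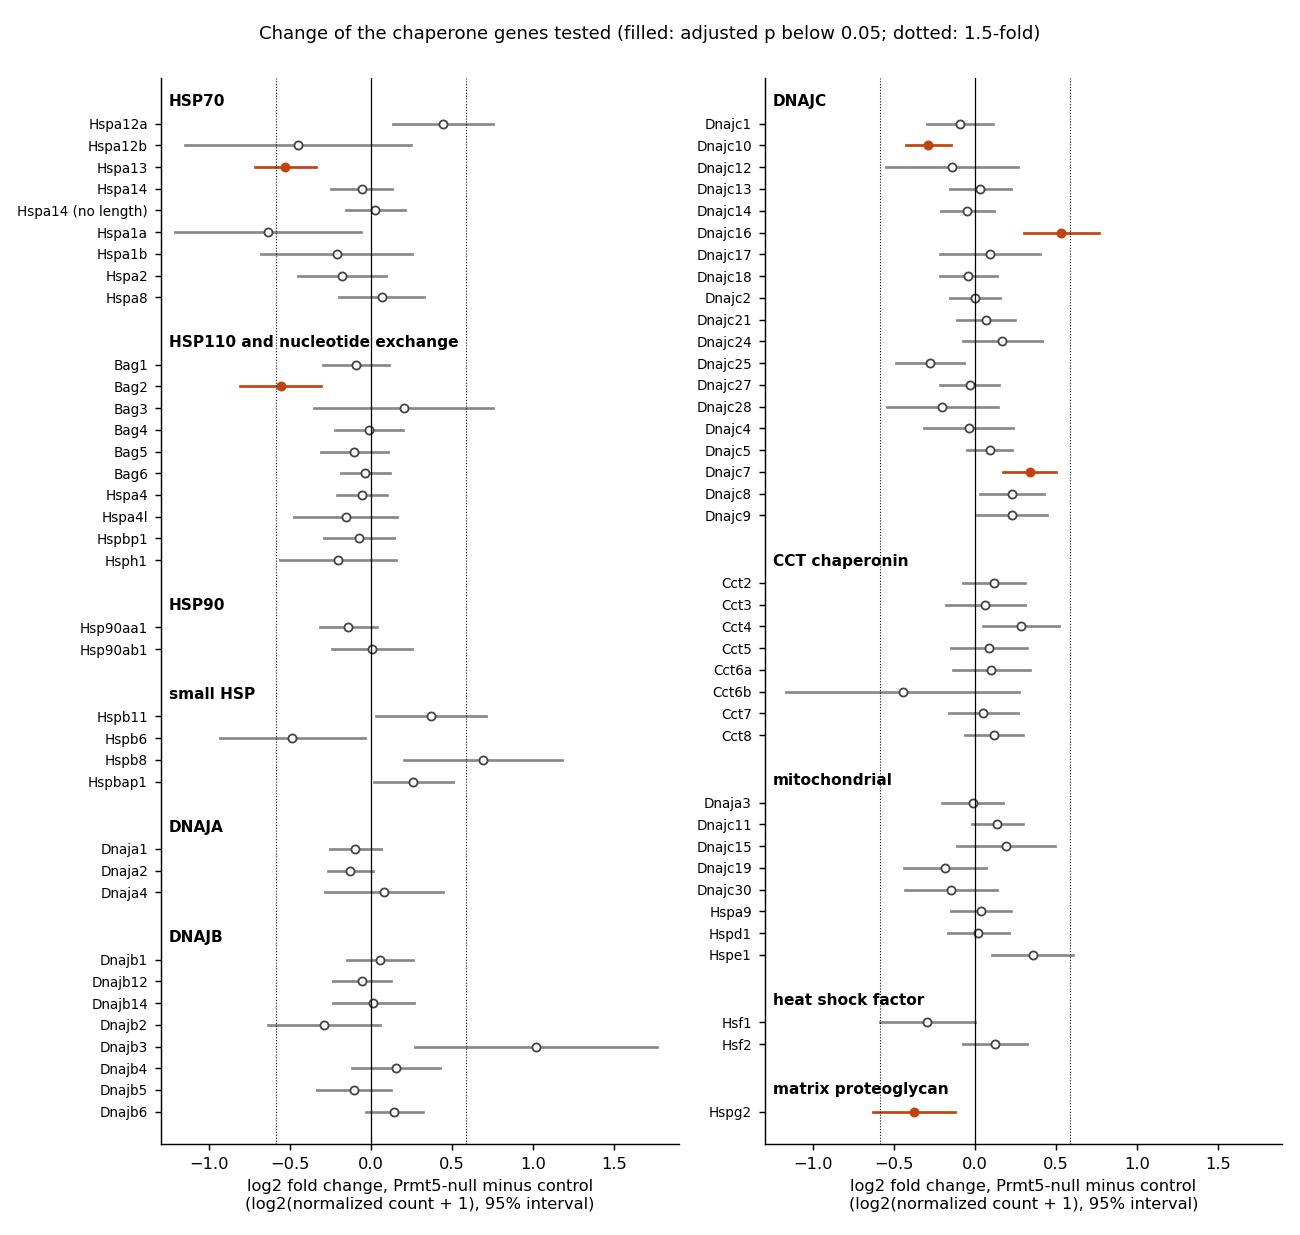
Log2 fold change of Prmt5-null over control for the 74 genes tested, on the log2(normalized count + 1) scale, grouped by role, with lines for the 95% interval from limma and dotted lines at 1.5-fold. Filled orange points mark the 6 genes with an adjusted p below 0.05, none of which lies past 1.5-fold.

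The 6 genes that passed were 4 that fell and 2 that rose, and in each the libraries of the genotypes did not overlap. Such separation occurred in 11 of the 74 genes (14.9%), beside 19.8% of all genes tested. The other 5 separated genes were Dnaja2, Dnajb3, Dnajc25, Hspa12a and Hspe1, none of which passed the test.

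Hspa13 encodes an HSP70-like ATPase (STCH) of the ER. It had 1706, 1963, 2081 and 2103 normalized counts in Prmt5-null libraries and 2561, 2887, 2914 and 2951 in controls. The highest Prmt5-null library lay under the lowest control, and the gene fell to 0.693 of the control level (log2 fold change -0.53 ± 0.09 SE, adjusted p = 0.00227 by limma). Dnajc10 encodes ERdj5, an ER reductase with a J-domain. Its counts were 5019, 5111, 5303 and 5344 in Prmt5-null and 6151, 6181, 6443 and 6583 in control libraries. It fell to 0.819 of the control level (log2 fold change -0.29 ± 0.06, adjusted p = 0.0123 by limma), the smallest of the 6 changes.

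Bag2, a nucleotide exchange factor that also inhibits the ubiquitin ligase CHIP, had 652, 777, 815 and 905 normalized counts in Prmt5-null and 1048, 1107, 1143 and 1326 in control libraries. All 4 Prmt5-null values were below the lowest control. The fall was to 0.679 of control (log2 fold change -0.56 ± 0.11 SE, adjusted p = 0.00746 by limma).

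Hspg2, the perlecan gene, had 985, 1115, 1287 and 1330.2 normalized counts in Prmt5-null and 1344, 1419, 1669 and 1678 in control libraries. Its highest Prmt5-null library lay just under its lowest control, and it fell with the weakest evidence of the 6 (log2 fold change -0.38 ± 0.12 SE, adjusted p = 0.0493 by limma). The call was lost without any one of PRMT5-10617, PRMT5-10770 or PRMT5-10771 or CTRL-10596, CTRL-10597 or CTRL-10650, with adjusted p from 0.0584 to 0.128, and under edgeR, quantile normalization, no filter on low values and no intensity trend, with adjusted p from 0.0557 to 0.0986. Fibroblasts are a known source of perlecan, and the summed fibroblast genes reached higher in Prmt5-null libraries (given above). Whether the reads of Hspg2 came from B cells or feeders was not tested.

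Dnajc16 encodes a J-domain protein of the ER membrane. Its counts were 1448, 1665, 1810.4 and 2020.3 in Prmt5-null and 1110.3, 1161, 1178 and 1324 in control libraries. All 4 Prmt5-null libraries lay above the highest control, and the gene rose 1.45-fold (log2 fold change 0.53 ± 0.11 SE, adjusted p = 0.00666 by limma). Dnajc7 encodes TPR2, a cytosolic cochaperone that binds both HSP70 and HSP90. It had 11034, 11417, 11454 and 11695 normalized counts in Prmt5-null and 8129, 8883, 9477 and 9678 in control libraries. It rose 1.26-fold (log2 fold change 0.34 ± 0.07, adjusted p = 0.0108 by limma).

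Since the genotypes did not overlap in these 6 genes, the direction of the difference is fixed on either side of the second principal component, and only its size is given there (2 mice per genotype on each side). The log2 difference was -0.61 and -0.44 for Hspa13, -0.62 and -0.50 for Bag2, -0.25 and -0.32 for Dnajc10, -0.24 and -0.51 for Hspg2, 0.60 and 0.47 for Dnajc16, and 0.31 and 0.37 for Dnajc7. All but Hspg2 passed under every one of the 17 alternatives run.

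**Figure D3:**
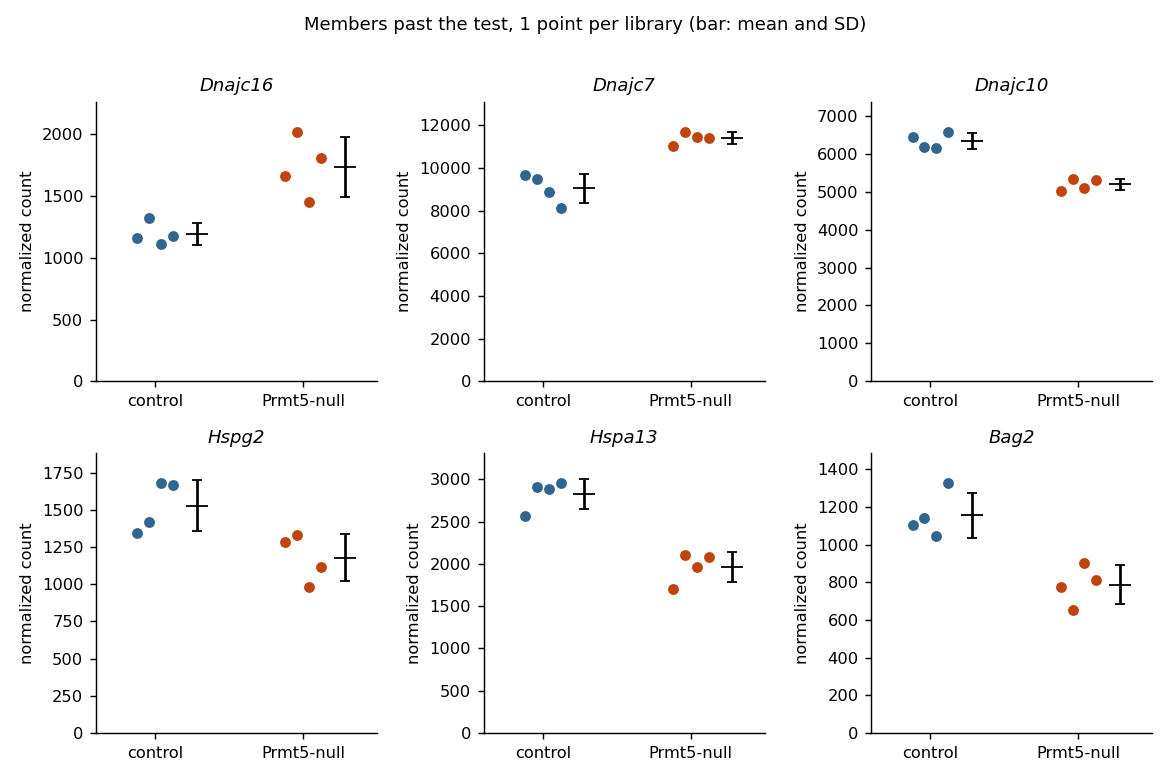
Normalized counts of the 6 genes that passed the test, with 1 point per library, the mean and the SD (n = 4 per genotype), on axes that start at 0. In each panel the control and Prmt5-null libraries do not overlap, and the gap is narrowest for Hspg2.

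Of the 9 HSP70 genes tested, 1 (Hspa13) passed. Hspa8 carried most of the family's counts, with 78676, 88001, 91354 and 111760.0 normalized counts in Prmt5-null and 75594, 89324, 90406 and 96210.4 in control libraries. These ranges overlapped (log2 fold change 0.07, 95% interval -0.20 to 0.33, adjusted p = 0.759 by limma), with an interval that lies within 1.5-fold either way. The stress-inducible Hspa1a had 40.7, 43.3, 59.2 and 62.6 normalized counts in Prmt5-null and 57.3, 68.6, 78.6 and 127 in control libraries. CTRL-10597 was highest for both Hspa1a and its copy Hspa1b (137 there, 70.1 to 92.6 in the other 7 libraries). The log2 fold change was -0.64 for Hspa1a (95% interval -1.21 to -0.06, adjusted p = 0.133) and -0.21 for Hspa1b (-0.68 to 0.26, adjusted p = 0.554), both by limma. Hspa12a, a distant relative of HSP70, had 214, 264, 270.5 and 303 normalized counts in Prmt5-null and 167, 196, 201.4 and 205 in control libraries. Its genotypes were separated but the test was missed (log2 fold change 0.44 ± 0.14 SE, adjusted p = 0.0568 by limma, 0.0264 without PRMT5-10618 and 0.0489 with the block).

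The nucleotide exchange group held Hspa4 and Hspa4l (HSP110 proteins), Hsph1, Hspbp1 and Bag1 to Bag6, and 9 of its 10 log2 fold changes were negative although 1 gene (Bag2) passed. Hspa4, the most abundant of them per kb, was tightly grouped, with 23166 to 25182 normalized counts in Prmt5-null and 23705 to 25849.7 in control libraries (log2 fold change -0.06, 95% interval -0.21 to 0.10). Hsph1, an inducible HSP110, was more variable. It had 1739.6 to 2703 in Prmt5-null and 2039 to 3446 in control libraries (log2 fold change -0.20, 95% interval -0.56 to 0.15). Bag1, which links HSP70 to the proteasome, was at -0.09 and Bag5 at -0.10, while Bag4 (-0.01) and Bag6 (-0.03) were nearer 0 in log2 fold change, and none of the 4 passed. Bag3, an inducible cochaperone of selective autophagy, was low, with 40.3 to 77.8 normalized counts over all libraries and a log2 fold change of 0.20 (95% interval -0.35 to 0.76).

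Neither HSP90 gene passed. Hsp90ab1 had 57389, 68679, 72692 and 83386 normalized counts in Prmt5-null and 65267, 67316, 73288 and 73322 in control libraries. The Prmt5-null libraries reached both below and above the controls, and the means were nearly equal (70537 ± 10740.2 and 69798 ± 4135, SD, n = 4 each; log2 fold change 0.00, 95% interval -0.24 to 0.25). Hsp90aa1 had 29810.4, 31565, 32906 and 35094 in Prmt5-null and 33425, 35702, 35721 and 37688 in control libraries. The lower 3 Prmt5-null libraries lay under every control, and the log2 fold change was -0.14 (95% interval -0.32 to 0.03, adjusted p = 0.269 by limma).

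J-domain proteins made up the largest group. Of the 3 type A genes tested none passed. Dnaja2, an HSC70 partner, had 9459 to 9974 normalized counts in Prmt5-null and 10161 to 11042 in control libraries, a separation without overlap but a small difference (log2 fold change -0.13, 95% interval -0.27 to 0.01, adjusted p = 0.21 by limma). Dnaja1, the other abundant type A partner, was at -0.10 (95% interval -0.26 to 0.06). Of the 8 type B genes tested none passed either. Dnajb1, the inducible HSP40, had 2601, 2749, 3020.2 and 3381 normalized counts in Prmt5-null and 2558, 2823, 2868 and 3024 in control libraries. The genotypes overlapped, with a log2 fold change of 0.06 (95% interval -0.15 to 0.26). Dnajb3 had the largest log2 fold change of all 74 genes, 1.02 (95% interval 0.27 to 1.77, adjusted p = 0.0696 by limma), on 18.4 to 23.8 normalized counts in Prmt5-null and 6.46 to 16.6 in control libraries. Its test was passed without CTRL-10597 (adjusted p = 0.0374), the control library nearest to the Prmt5-null ones.

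Of the 19 type C genes tested, Dnajc7 and Dnajc16 rose, Dnajc10 fell, and the others did not pass. Dnajc25 had 399 to 462 normalized counts in Prmt5-null and 492 to 549 in control libraries (log2 fold change -0.28 ± 0.10 SE, adjusted p = 0.0806 by limma). Dnajc9, which also acts as a histone chaperone, had 7971 to 10283 in Prmt5-null and 6945 to 8719 in control libraries (log2 fold change 0.23, 95% interval 0.02 to 0.45, adjusted p = 0.145). Dnajc13, a J-domain protein of endosomes, was at 0.03 (95% interval -0.15 to 0.22).

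None of the 8 CCT genes tested passed. The 7 abundant subunits had log2 fold changes from 0.05 (Cct7) to 0.28 (Cct4), and the testis form Cct6b, with 9.26 to 22.3 normalized counts, had -0.45 (95% interval -1.17 to 0.27). Cct4 had 26478, 28843, 29887 and 37260.2 normalized counts in Prmt5-null and 23112, 23868, 25270.2 and 27729 in control libraries. One Prmt5-null library lay within the control range (adjusted p = 0.102 by limma, and 0.04995 without that library, PRMT5-10618). Cct5, the most abundant subunit per kb, had 33937, 36896, 40569.9 and 47505 in Prmt5-null and 34714, 35257, 39222 and 39572 in control libraries, with a log2 fold change of 0.09 (95% interval -0.15 to 0.32).

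The subunits of the ring moved together from library to library within a genotype. PRMT5-10770 had the highest value for 7 of the 7 abundant subunits, and the lowest value was in PRMT5-10618 for 4 of them and in CTRL-10596 for 3. The ratio of PRMT5-10770 to PRMT5-10618 ran from 1.24 (Cct2) to 1.48 (Cct3), beside ratios of the genotype means from 1.04 (Cct7) to 1.22 (Cct4). Summed over the 7 subunits, the counts were 169218, 184135, 197334 and 232327 in Prmt5-null and 169515, 171912, 184614 and 190511 in control libraries. The lowest sums of the genotypes were nearly equal, and the difference of the log2 sums, 0.12, was smaller than the spread between Prmt5-null mice (exact permutation test, two-sided, p = 0.371, where the smallest p that 4 against 4 can give is 0.0286). The difference was 0.10 and 0.14 on the 2 sides of the second principal component. Without PRMT5-10770 the log2 fold changes of Cct3, Cct5, Cct6a and Cct7 turned slightly negative (-0.04 for Cct3, the lowest).

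Hspa8 and Hsp90ab1 were also highest in PRMT5-10770, above PRMT5-10618 by 1.42 and 1.45 times, and so was Tcp1, the CCT subunit that the symbol rule does not take. Hsp90aa1 and Hspa4 were not. Over all 74 genes tested, 26 (35.1%) were highest in PRMT5-10770, beside 21.9% of all genes tested, and 18 (24.3%) were lowest in PRMT5-10618, beside 14.8%. These 2 libraries also lay farthest apart among the Prmt5-null mice on the second principal component (37.7 for PRMT5-10618 and -28.7 for PRMT5-10770). All 88 genes together took 1.37 ± 0.0961% of the normalized counts in Prmt5-null and 1.33 ± 0.0274% in control libraries (SD, n = 4 each, exact permutation p = 0.543, two-sided).

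**Figure D4:**
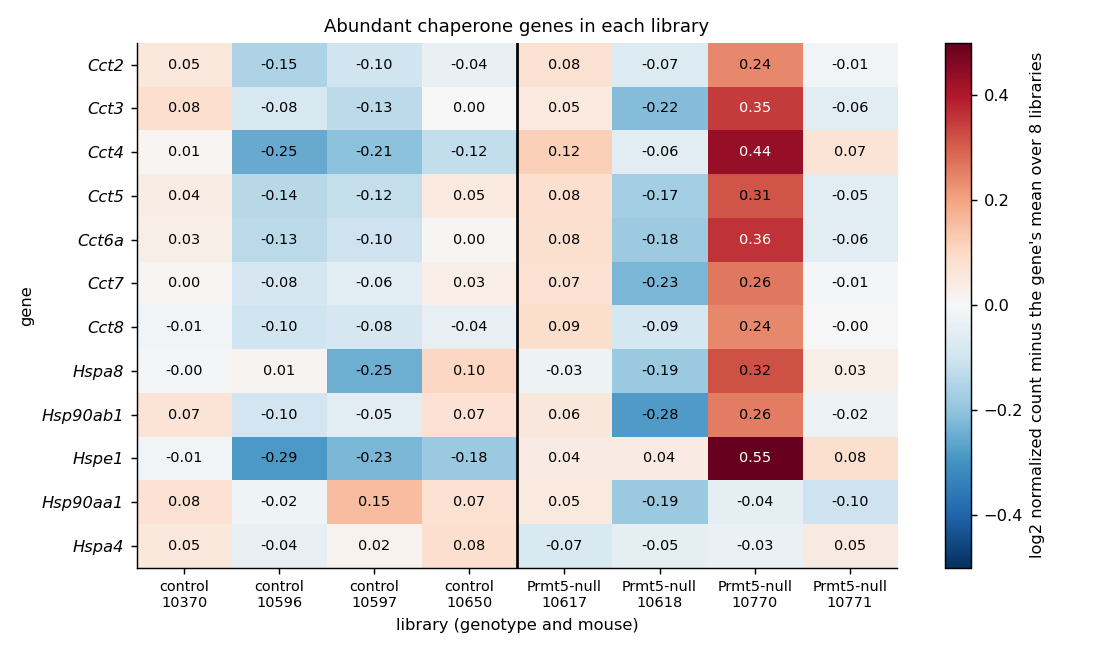
Log2 normalized count of 12 abundant chaperone genes in each library, minus the mean of the gene over the 8 libraries, with red above and blue below the mean. The column of PRMT5-10770 is the highest for the 7 CCT subunits, Hspa8, Hsp90ab1 and Hspe1 (0.24 to 0.55), whereas Hsp90aa1 and Hspa4 are at -0.04 and -0.03 there.

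None of the 8 mitochondrial members passed. Hspa9 (mortalin, the mitochondrial HSP70) was at a log2 fold change of 0.04 (95% interval -0.15 to 0.22), and Hspd1 (HSP60, the mitochondrial chaperonin) at 0.02 (-0.17 to 0.21). Hspe1 encodes HSP10, the lid of the HSP60 ring. Its counts were 7942, 7943, 8149.7 and 11276 in Prmt5-null and 6328, 6583, 6789 and 7641 in control libraries. The genotypes did not overlap, with PRMT5-10770 far above the other 7 libraries (log2 fold change 0.36 ± 0.11 SE, adjusted p = 0.0592 by limma). The adjusted p of Hspe1 was 0.0465 without PRMT5-10618, 0.0456 after quantile normalization, 0.0257 with the block for the sides of the second principal component, 0.0257 by DESeq2 and 0.0528 by edgeR. Dnaja3, the mitochondrial J-domain partner of Hspa9, was at -0.01 (95% interval -0.20 to 0.18).

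Small heat shock proteins, which hold unfolded clients without ATP, were scarce in iGBs. Of the 9 genes of this group, which also holds the HSP27-associated Hspbap1, 4 were tested and none passed. Hspb8, the partner of Bag3, had 96.0, 129, 168 and 204 normalized counts in Prmt5-null and 80.6, 82.9, 88.3 and 103 in control libraries. One Prmt5-null library, PRMT5-10618, lay within the control range. The ratio of the fitted means was 1.62 (log2 fold change 0.69 ± 0.22 SE, adjusted p = 0.0602 by limma), and the adjusted p was 0.0472 by edgeR, 0.0128 by DESeq2, 0.0129 by limma without PRMT5-10618 and 0.0402 by limma with the block. Hspb6 had 74.8 ± 19.7 in Prmt5-null and 103 ± 9.04 in control libraries (SD, n = 4 each, log2 fold change -0.49, 95% interval -0.94 to -0.04, adjusted p = 0.142). Hspb11, which is known as an intraflagellar transport protein more than as a chaperone, was at 0.37 (adjusted p = 0.141, and 0.0426 without CTRL-10370).

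Hsf1, the main activator of the heat shock response, had 745, 958, 1065 and 1181 normalized counts in Prmt5-null and 1039.5, 1201, 1244 and 1314 in control libraries. The lowest value was in PRMT5-10770, the genotypes overlapped, and the test was not passed (log2 fold change -0.30 ± 0.13 SE, adjusted p = 0.167 by limma). Hsf2 had 845 to 979 in Prmt5-null and 749 to 872 in control libraries (log2 fold change 0.12, 95% interval -0.08 to 0.32).

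Heat shock elements were sought in the window from 250 bases before to 50 bases after the annotated starts (RefSeq, GRCm38.p6), which the reference held for 70 of the 87 symbols. An element of 3 units (GAANNTTCNNGAA or TTCNNGAANNTTC, each the reverse complement of the other, so both strands were covered) was found in 4 of the 70 genes (5.71%), beside 0.662% of the 27025 genes with such a window. The 4 were Hspe1, Hspd1, Dnajb6 and Hsph1, and their elements are printed 5′ to 3′ on the strand of the gene with the element in capitals, because they are the only elements of this length that the windows of the set held. Hspe1 and Hspd1 are divergent neighbours and share 1 element, read from opposite strands, which runs over 18 bases and holds 4 alternating units. It ends 72 bases before the Hspe1 start and 127 bases before the downstream of 2 Hspd1 starts. In Dnajb6 the element ends 34 bases before the first of 2 starts, and in Hsph1 it lies within the first 50 bases that are transcribed.
Hspe1, chr1:55088053-55088082, plus strand: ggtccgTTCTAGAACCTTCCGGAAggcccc
Hspd1, chr1:55088053-55088082, minus strand: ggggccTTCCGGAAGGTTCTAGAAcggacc
Dnajb6, chr5:29735844-29735872, plus strand: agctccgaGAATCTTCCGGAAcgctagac
Hsph1, chr5:149636280-149636308, minus strand: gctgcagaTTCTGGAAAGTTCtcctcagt

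The 4 genes with this element did not move as a group. Their log2 fold changes were 0.36 (Hspe1), 0.14 (Dnajb6), 0.02 (Hspd1) and -0.20 (Hsph1), none past the test, with a median of 0.08, beside -0.01 over the 55 tested genes with a window and no such element. A shorter element of 2 units (GAANNTTC or TTCNNGAA, each of which is also part of the longer one) was found in 21 of the 70 genes (30%), beside 17.0% of all genes with a window. The median log2 fold change was 0.08 over the 17 of these that were tested, from -0.64 to 0.69, and -0.02 over the 42 tested genes without it. These matches describe letters in the window and not binding.

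Splicing was the second readout of the study. The authors' list of splicing events gives 1918 events, and holds 6 in chaperone genes, of which 5 are skipped exons and 1 is a pair of mutually exclusive exons. Because the list holds events chosen for their difference between these same libraries, the inclusion levels below are a description without a test, and the levels of the 4 libraries of a genotype are not tied to a mouse. Of the 71 chaperone genes with a mean above 50 normalized counts, 6 (8.45%) had a listed event, beside 1519 of 13300 genes (11.4%). No retained intron and no altered splice site was listed for a chaperone gene.

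Dnajc4 had the event with the largest fall. Its skipped exon of 165 bases is wholly coding in 1 annotated transcript and a multiple of 3 in length. The inclusion level, the fraction of transcripts estimated to hold the exon, was 0.715, 0.772, 0.821 and 0.9 in control and 0.356, 0.408, 0.438 and 0.477 in Prmt5-null libraries, on 248 and 173 reads in all. No Prmt5-null level reached the lowest control level, and the mean went from 0.802 to 0.420. The Dnajc4 transcript level itself was close to control, at 257 to 340.4 normalized counts in control and 277 to 330.0 in Prmt5-null libraries (log2 fold change -0.04, 95% interval -0.32 to 0.24). In Bag6, whose product holds hydrophobic proteins on their way to the ER membrane or the proteasome, an exon of 108 bases, wholly coding in 2 annotated transcripts, went from 0.917, 0.943, 0.954 and 0.979 in control to 0.748, 0.83, 0.884 and 0.887 in Prmt5-null libraries, on 1215 and 1100 reads. The genotypes did not overlap, while the log2 fold change of the Bag6 transcript was -0.03. Both exons are printed here on the strand of the gene (GRCm38), because they are the skipped exons whose levels were lower in every Prmt5-null library than in any control library, with the exon in capitals and, for Dnajc4, 20 bases of intron on each side in lower case. The Dnajc4 intron that follows begins with gt and the one before it ends with ag, and both exons end with the bases CAG.
Dnajc4 exon, chr19:6989403-6989607, minus strand: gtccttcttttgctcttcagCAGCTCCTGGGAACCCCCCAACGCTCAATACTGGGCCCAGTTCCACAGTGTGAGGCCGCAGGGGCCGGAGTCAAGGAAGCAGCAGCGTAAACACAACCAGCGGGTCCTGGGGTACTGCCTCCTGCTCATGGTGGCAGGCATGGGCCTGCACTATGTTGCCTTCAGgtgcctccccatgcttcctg
Bag6 exon, chr17:35142498-35142605, plus strand: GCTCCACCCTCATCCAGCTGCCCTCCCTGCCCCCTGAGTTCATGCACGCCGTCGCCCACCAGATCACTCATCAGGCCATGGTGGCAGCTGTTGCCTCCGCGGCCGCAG

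In the other 4 events the inclusion level was higher in Prmt5-null libraries in 3. Hsf1 had a pair of mutually exclusive exons, of 125 and 62 bases, and the level of the first was 0.651, 0.663, 0.735 and 0.747 in control and 0.82, 0.822, 0.845 and 0.884 in Prmt5-null libraries, on 364 and 260 reads. The genotypes did not overlap there. The skipped exon of Dnajb2, a J-domain protein that hands clients to the proteasome, went from 0.479 to 0.661 in control to 0.871 to 1 in Prmt5-null libraries, on only 60 and 63 reads. The Dnajc27 exon had levels from 0.767 to 1 in control and of 1 in all Prmt5-null libraries, so the genotypes touched. The Dnajc8 exon had a lower mean level in Prmt5-null libraries (0.592) than in control libraries (0.860), but the 26 control and 20 Prmt5-null reads gave levels from 0.44 to 1 and from 0.343 to 1, which overlap over nearly their whole range.

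**Figure D5:**
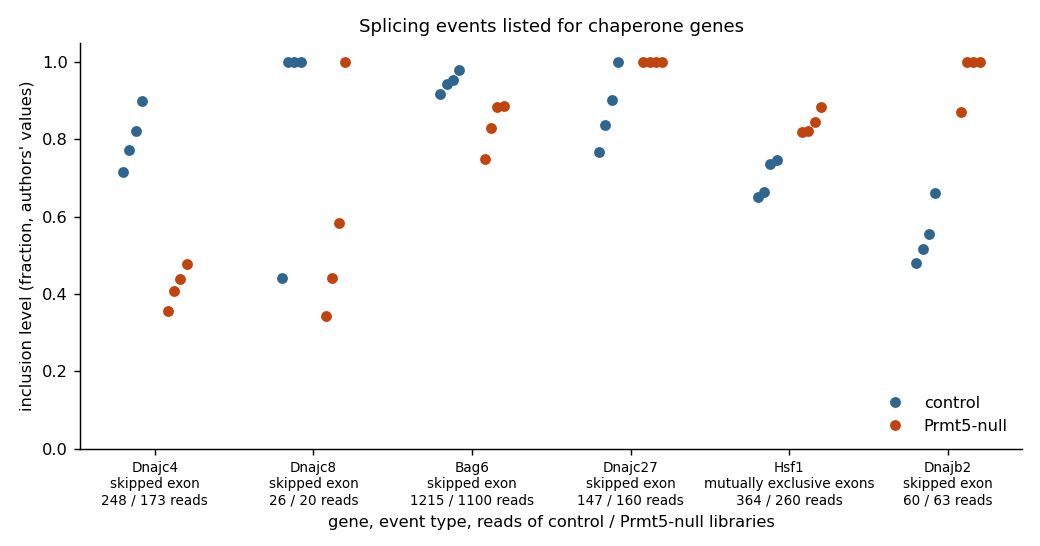
Inclusion levels of the 6 listed events, as the authors' fractions, with 1 point per library (blue control, orange Prmt5-null) and the reads behind each genotype under the gene name. Dnajc4, Bag6, Hsf1 and Dnajb2 are separated between the genotypes, and Dnajc8 and Dnajc27 are not.

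Cochaperones outside the symbol rule were tested for comparison. Of 27 such genes, 3 rose (beside 6.51% of all genes tested), 1 fell (beside 7.33%) and the median log2 fold change was 0.08. The 4 of 27 that passed in either direction are a share near the 13.8% of all genes that did. The risers were Unc45a, a myosin and HSP90 cochaperone (2013 to 2268 normalized counts in control and 2675 to 2993 in Prmt5-null libraries; log2 fold change 0.44, adjusted p = 0.00287), Chordc1, an HSP90 cochaperone (0.27, adjusted p = 0.0224), and Ppid, the HSP90-binding cyclophilin (0.28, adjusted p = 0.0423), all by limma. Stub1 encodes CHIP, the ubiquitin ligase that Bag2 inhibits. It fell from 2272, 2290.4, 2318 and 2402 normalized counts in control to 1436, 1636, 1655 and 1905 in Prmt5-null libraries (log2 fold change -0.49 ± 0.09 SE, adjusted p = 0.00398 by limma). Its genotypes were separated without overlap, as were those of Bag2, which also fell.

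All 5 ER chaperones that the rule leaves out fell in Prmt5-null iGBs, beside 7.33% of all genes tested that fell. This list was chosen with earlier results of these data known. The log2 fold changes ran from -0.63 (Hspa5, the ER HSP70 known as BiP) to -0.44 (Dnajb11, its J-domain partner). The adjusted p ran from 0.000956 (Dnajc3) to 0.0466 (Dnajb9) by limma. Hspa5 had 46752, 55604, 55663 and 56947 normalized counts in Prmt5-null and 74323, 77452, 89514 and 91084 in control libraries, and Hsp90b1, the ER HSP90, had 53089 to 68288 and 72831 to 103906. The summed counts of the 5 were 113075 to 139192 in Prmt5-null and 168489 to 217792 in control libraries. Each of the 5 genes was lower in every Prmt5-null library than in any control library. Of all genes tested, 19.8% had genotypes that did not overlap, in either direction. The sums of the 5 therefore had to separate as well, and no test of them is given. Among the genes of the rule that passed, the ER proteins Hspa13 and Dnajc10 fell as well, and the ER membrane protein Dnajc16 rose. Any other ER protein among the 74 genes tested did not pass. Prdm1 and Xbp1, regulators of plasma cell differentiation and secretion, also fell (log2 fold change -0.48, adjusted p = 0.0428, and -0.45, adjusted p = 0.0305, by limma), while Sdc1, the plasma cell surface marker, was at 0.16 (adjusted p = 0.588). The part that these genes play in the ER results was not tested.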

How the data were processed

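RNA-seq of 8 iGB cultures, 4 mice per genotype, was used. The authors trimmed reads with Trimmomatic 0.32, aligned them to mm10 (GRCm38) with STAR 2.3.0e, counted uniquely mapped reads on Ensembl exons with featureCounts 1.4.4 and deposited a normalized signal, each count divided by the DESeq2 1.14.1 size factor of its library. Every deposited value was a whole multiple of 1 read (100% of values within 0.05), which gave the depths. The strand setting of the counting is not given in the sources used here, so overlapping genes are uncertain. Splicing levels are fractions that the authors obtained with rMATS from untrimmed reads and deposited as lists of 4 per genotype, with read counts; the genotype of each list was read from the paper's legends. The deposited p-value, FDR and difference columns were not used.

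The genotype difference was fitted in limma 3.58.1 under R 4.3.3 (lmFit, then eBayes with an intensity trend) to log2(normalized count + 1), which understates changes of low genes, for the 16250 genes with a mean of at least 10, with Benjamini-Hochberg adjustment. edgeR 4.0.16 and DESeq2 1.42.0 ran on the recovered reads as alternatives, and the fits were tested on simulated data. Exact tests went through all 70 assignments of 4 against 4 libraries with NumPy 2.4.6, and tables used pandas 2.3.3. Levels per kb used GENCODE exon lengths. Genes were named where they passed the test, were among the 10 highest per kb, defined a role or had a splicing event, and of the other lists where they passed. Dnaja2, Dnajb3, Dnajb6, Dnajc9, Dnajc13, Dnajc25, Dnaja3, Hspa12a, Hspb6, Hspb8, Hspb11, Cd3e, Sdc1 and Tcp1 fall outside that rule and were named after their values were seen. The members and lists were chosen with earlier results of these data known. Replicates are separate mice, and p-values measure the spread between them.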

Additional observations from a re-analysis of the deposited data

Results flagged for a closer look

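Of 37 chaperone genes examined in both genotypes (74 groups of 4 libraries), 2 groups held a library whose gap to the nearest of the others took a share of the group's whole range above Dixon's 95% critical value for 4 samples, where chance flags about 1 in 20 groups. Hspe1 had 11276 normalized counts in PRMT5-10770, against 8149.7 in the next library of that genotype, a gap of 0.938 of the range. Hspa13 had 2561 normalized counts in CTRL-10370, against 2887 in the next control, a gap of 0.835 of the range.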

How the results depend on the processing

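The median log2 fold change of the members stayed within the spread between libraries under all 17 alternatives. The number passing was 10 under DESeq2 (beside 18.9% of all genes) and 5 to 10 when single libraries were left out (8.45% to 14.6%). It was highest without PRMT5-10618. The number was 9 under a block for the sides of the second principal component (17.0%) and 5 or 6 otherwise (7.12% to 15.8%). The number at 1.5-fold was 0 to 2 when single libraries were left out. It was 1 under edgeR, DESeq2, no intensity trend and this block, an alternative chosen after seeing the data and computed from the values tested. No share of all genes is given for the 1.5-fold numbers. Over 42 members and Prmt5, 10 calls were lost, all of Hspg2, 16 were gained, and 24 values near 0 changed sign without a call. No paired analysis was possible because mouse numbers differ between genotypes and no label ties a library to an experiment. Low counts limit, among others, Dnajb3, Hspa1a, Hspa1b, Bag3 and Cct6b, whose 95% intervals reach past 1.5-fold.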
